A study of Homo sapiens with 15 samples.

Results

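NFE2L2 encodes NRF2, the transcription factor that switches on antioxidant genes, and it was followed here with 9 genes that NRF2 is known to activate: GCLC, GCLM, GSR, TXN, TXNRD1, SRXN1, NQO1, HMOX1 and OSGIN1. The 10 genes were picked by symbol from the 26485 gene symbols that both deposited count tables share, and all 10 had enough counts to be tested in every comparison. All libraries came from PSN-1, 1 established human cell line of pancreatic ductal adenocarcinoma (PDAC), grown in RPMI with 10% FBS and pen/strep. In the siRNA experiment, cells were transfected for 72 hours with siRNA against MondoA (siMondoA; the gene is MLXIP), with siRNA against its DNA-binding partner MLX (siMLX) or with control siRNA (siControl). In the drug experiment, cells received SBI-477, which the labels call a MondoA inhibitor, or DMSO for 72 hours. Each of the 5 groups had 3 libraries, 15 in all. The dose of SBI-477 and the siRNA sequences are not given in the sources used here. The labels do not say whether replicates were separate cultures, so the spread behind each p-value may be technical.

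In unstressed cells, KEAP1 holds NRF2 and hands it to a ubiquitin ligase for destruction. Oxidants and reactive drugs modify KEAP1, NRF2 then accumulates, pairs with a small MAF protein and binds antioxidant response elements, while BACH1 occupies the same elements as a repressor. NRF2 is therefore controlled largely as a protein, and the mRNA levels given here do not measure its activity. The target genes make and recycle glutathione, keep the thioredoxin system reduced, remove quinones and break down haem.

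Depth was 11227343 to 14731691 counts per siRNA library and 23315440 to 30480362 per drug library. The knocked-down genes checked the siRNA labels. MLXIP had a log2 fold change of -1.95 ± 0.17 in siMondoA against siControl (SE; edgeR quasi-likelihood test, Benjamini-Hochberg adjusted p = 0.000118), and MLX one of -2.63 ± 0.18 in siMLX against siControl (edgeR adjusted p = 8.21e-05). All 7 epithelial markers on the list (among them EPCAM, KRT8 and KRT18) had counts in every group and summed to 1427 to 2805 CPM (counts scaled to library size). Of 6 immune markers, CD163, CD3E and MS4A1 were at 0 in all groups, and CD68 and CD14 had counts in every group; the list summed to 41.0 to 70.6 CPM. The authors' deposited drug fold changes were matched with SBI-477 replicate 2 and DMSO replicate 2 exchanged, to a median absolute difference of 1.89e-07 on the log2 scale over 13086 genes, against 0.196 with the libraries as labelled. By log2 CPM, DMSO replicate 2 correlated at 0.9781 and 0.9724 with DMSO replicates 1 and 3. With SBI-477 replicates 1 and 3 it correlated at 0.9873 and 0.9871. SBI-477 replicate 2 correlated at 0.9861 and 0.9832 with SBI-477 replicates 1 and 3, and at 0.9933 and 0.9911 with DMSO replicates 1 and 3. TXNIP, a known MondoA target, had 39.2 CPM in DMSO replicate 2 and 145 to 204 CPM in DMSO replicates 1 and 3. It had 121 CPM in SBI-477 replicate 2 and 41.5 to 74.6 CPM in SBI-477 replicates 1 and 3. Whether the labels of the replicate 2 libraries are exchanged was not tested. Libraries are named here by their labels, and each drug result is given for all 3 replicates and for replicates 1 and 3. In bulk RNA, fewer cells of a kind and less RNA per cell cannot be told apart.

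The RefSeq promoter table (GRCh38.p14) held 8 of the 10 genes, with 10 start sites between them. The core of the antioxidant response element, TGACNNNGC, was searched on both strands from 250 bases before each start to 50 after it, and 13.3% of the 35116 promoters in the table held it. Among the 10 windows it was found in that of GCLM and in both of TXNRD1. Neither the E-box CACGTG, the core of the sites that MondoA and MLX bind, nor the ATF4 element core TGATGNAA was found in any of the 10; 7.26% and 3.62% of all promoters held them. The 250 bases before the start are shown for GCLM, the gene called after siMondoA and, in drug replicates 1 and 3 but not with all drug libraries, with SBI-477, for the downstream start of TXNRD1, and for NQO1, whose window had no match. Each is written 5′ to 3′ along the gene's own strand, and capitals mark the element core, which in both cases lies on the opposite strand, so that its letters appear reversed and complemented.
GCLM, chr1:93909431-93909680, minus strand: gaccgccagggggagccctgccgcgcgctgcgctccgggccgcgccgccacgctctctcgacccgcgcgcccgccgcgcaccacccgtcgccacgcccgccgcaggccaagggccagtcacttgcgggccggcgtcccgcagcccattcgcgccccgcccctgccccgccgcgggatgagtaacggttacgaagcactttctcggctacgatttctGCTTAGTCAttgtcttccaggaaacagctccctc
TXNRD1, chr12:104286782-104287031, plus strand: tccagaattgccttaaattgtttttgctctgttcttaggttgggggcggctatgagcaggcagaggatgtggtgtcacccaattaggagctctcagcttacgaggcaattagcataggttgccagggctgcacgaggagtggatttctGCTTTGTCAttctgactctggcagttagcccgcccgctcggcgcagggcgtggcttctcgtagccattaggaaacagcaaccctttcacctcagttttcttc
NQO1, chr16:69726561-69726810, minus strand: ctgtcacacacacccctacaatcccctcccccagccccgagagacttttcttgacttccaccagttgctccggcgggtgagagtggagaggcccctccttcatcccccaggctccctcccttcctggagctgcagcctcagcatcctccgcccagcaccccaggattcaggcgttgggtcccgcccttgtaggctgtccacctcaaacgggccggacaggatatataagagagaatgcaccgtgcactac
Read on its own strand, the core was TGACTAAGC for GCLM and TGACAAAGC for TXNRD1. Along the gene's strand it covered the bases 34 to 26 before the start in GCLM and 102 to 94 before it in TXNRD1. A match is only a description of the letters, and no match says nothing about a factor or about sites outside the window.

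The siRNA experiment asks what loss of MondoA or of MLX does to these genes. After siMondoA, NFE2L2 and GCLM were each about doubled, and the other 8 genes did not pass the test, which had no replicate term. When the replicate number entered the fit as a block, GSR, HMOX1 and TXN passed too. After siMLX none passed. The calls after siMondoA were 2 of 10 (both higher), where 27.2% of all genes tested were called in either direction and 14.2% were higher. After siMLX they were 0 of 10, where 8.41% of all genes were called; 1 of the 10 had an unadjusted p under 0.05 and DESeq2 also called 0. The median log2 fold change of the 10 genes was 0.25 after siMondoA and 0.00 after siMLX, and the medians over all genes tested were 0.00 and 0.02.

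NFE2L2 itself (chr2:177227595-177392697, minus strand, GENCODE v29 on GRCh38) had 307, 325 and 381 CPM in siMondoA replicates 1, 2 and 3, 154, 317 and 144 CPM in siMLX and 179.8, 189 and 153 CPM in siControl. All 3 siMondoA libraries lay above all 3 siControl libraries, while of the siMLX libraries only replicate 2 did. Means were 338 ± 38.5 CPM in siMondoA, 205 ± 97.0 in siMLX and 174 ± 18.6 in siControl (SD, n = 3 each). The gene rose 1.94-fold after siMondoA (log2 fold change 0.96 ± 0.26 SE, edgeR adjusted p = 0.0228). This call was lost without siMondoA replicate 3 or without any 1 of the siControl libraries, with edgeR adjusted p of 0.0614 to 0.0785 and log2 fold changes of 0.86 to 1.02. After siMLX the log2 fold change was 0.24 ± 0.26 (edgeR adjusted p = 0.61). It turned to -0.22 when siMLX replicate 2 was left out (edgeR adjusted p = 0.352).

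NFE2L2 was high in the siRNA libraries with a high integrated stress response, the ATF4 program that cells start when amino acids run short or proteins misfold. For 14 genes of that response, siMondoA replicates 1, 2 and 3 had median log2 differences from siControl of 1.52, 3.13 and 2.75, and siMLX replicates 1, 2 and 3 had -0.09, 2.71 and 0.27. For NFE2L2 the same differences were 0.82, 0.91 and 1.13 in siMondoA and -0.17, 0.87 and -0.27 in siMLX. Thus the 4 libraries with high stress genes were the 4 with high NFE2L2, and 1 of them was an siMLX library. Within siMondoA the order differed, with the stress genes highest in replicate 2 and NFE2L2 highest in replicate 3. The part of the stress response in the NFE2L2 result was not tested. Of the 14 stress genes, 12 rose after siMondoA and 1, CEBPB, after siMLX. Of all genes tested, 14.2% were higher after siMondoA, and 8.41% were called in either direction after siMLX.

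**Figure D1:**
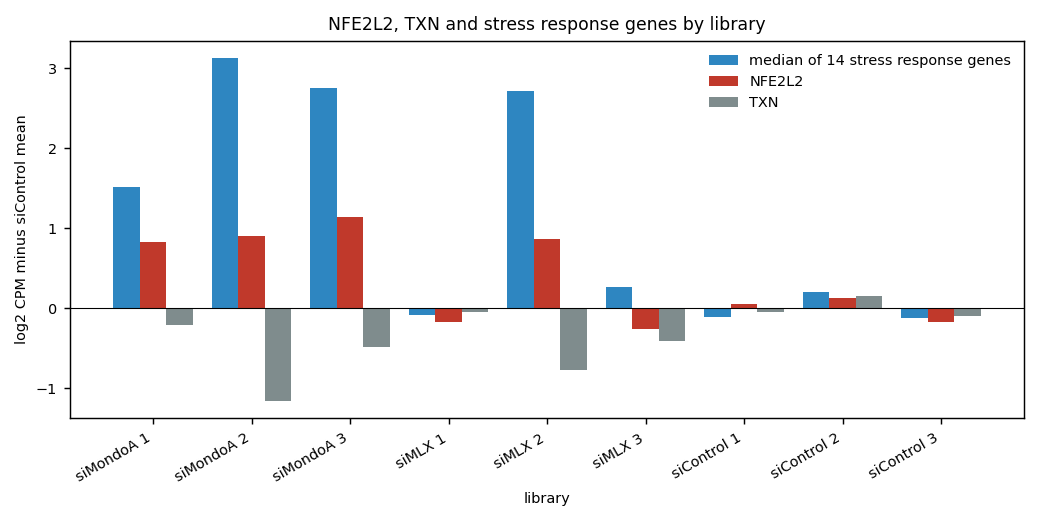
Bars give, for each of the 9 siRNA libraries, the log2 CPM minus the siControl mean for NFE2L2 and TXN and the median of that difference over 14 stress response genes. NFE2L2 bars reach 0.82 to 1.13 in siMondoA and 0.87 in siMLX replicate 2, the libraries whose stress bars are at 1.52 or above, and TXN bars are lowest in replicate 2 of siMondoA and of siMLX.

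Glutathione is made by glutamate-cysteine ligase, whose catalytic subunit is GCLC and whose modifier subunit is GCLM, and its oxidised form is reduced by glutathione reductase, GSR. GCLM (chr1:93885205-93909456, minus strand) had 65.1, 58.3 and 118 CPM in siMondoA, 53.1, 61.8 and 57.7 CPM in siMLX and 35.5, 40.5 and 40.2 CPM in siControl. Both knockdown groups lay wholly above siControl, and siMondoA replicate 3 was far above the rest. GCLM rose 2.08-fold after siMondoA (log2 fold change 1.06 ± 0.23, edgeR adjusted p = 0.00941). The call held without siMondoA replicate 3, at a log2 fold change of 0.67 (edgeR adjusted p = 0.0133). After siMLX its log2 fold change was 0.57 ± 0.23 and did not pass (edgeR adjusted p = 0.143). It passed when only the siMLX and siControl libraries entered the fit (edgeR adjusted p = 0.0223), and the authors' deposited table gives it 0.57 with an adjusted p of 0.00606.

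The catalytic partner GCLC (chr6:53497341-53616970, minus strand) had 40.6, 36.6 and 43.9 CPM in siMondoA, 41.2, 37.7 and 44.7 CPM in siMLX and 39.5, 42.3 and 39.9 CPM in siControl. The 3 groups overlapped. Its log2 fold change was -0.01 ± 0.12 after siMondoA (edgeR adjusted p = 0.966) and 0.02 ± 0.12 after siMLX (edgeR adjusted p = 0.927).

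GSR (chr8:30678061-30727999, minus strand) had 70.9, 53.3 and 63.9 CPM in siMondoA, 71.4, 63.1 and 67.1 CPM in siMLX and 84.7, 72.8 and 75.2 CPM in siControl. Both knockdown groups lay below siControl without overlap. The log2 fold changes of -0.31 ± 0.12 after siMondoA (edgeR adjusted p = 0.0885) and -0.21 ± 0.12 after siMLX (edgeR adjusted p = 0.325) did not pass. Separation of this kind was common: it held for 47.2% of all genes tested between siMondoA and siControl and for 33.4% between siMLX and siControl.

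In the thioredoxin system, TXN is thioredoxin, TXNRD1 is the cytosolic reductase that recharges it with NADPH, and SRXN1 is sulfiredoxin, which restores overoxidised peroxiredoxins. TXN (chr9:110243811-110256640, minus strand) had 447, 232 and 372 CPM in siMondoA, 504, 303 and 391 CPM in siMLX and 502, 579 and 484 CPM in siControl. The siMondoA libraries all lay below the siControl libraries, and within both knockdown groups replicate 2 was the lowest. The log2 fold change of -0.57 ± 0.24 after siMondoA did not pass (edgeR adjusted p = 0.0924), and after siMLX it was -0.38 ± 0.23 (edgeR adjusted p = 0.336). In the authors' deposited table, whose siRNA columns were matched by a DESeq2 fit with a replicate term, TXN has -0.62 after siMondoA with an adjusted p of 0.0139. GENCODE v29 lists 7 pseudogenes named after TXN, so short reads may be shared between copies.

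TXNRD1 (chr12:104215779-104350305, plus strand) had 350.03, 533 and 646 CPM in siMondoA, 330.4, 369.9 and 347 CPM in siMLX and 403, 357 and 368 CPM in siControl. Replicates 2 and 3 of siMondoA were above every other siRNA library, and replicate 1 was below every siControl library. Its log2 fold change was 0.44 ± 0.18 after siMondoA (edgeR adjusted p = 0.0991) and -0.11 ± 0.18 after siMLX (edgeR adjusted p = 0.766). Without siMondoA replicate 1 the siMondoA value was 0.65 and passed (edgeR adjusted p = 0.00548).

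SRXN1 (chr20:646615-653370, minus strand) had 133, 136 and 129.5 CPM in siMondoA, 120.4, 117 and 136 CPM in siMLX and 124, 125 and 132 CPM in siControl. The groups overlapped, with log2 fold changes of 0.07 ± 0.10 after siMondoA (edgeR adjusted p = 0.638) and -0.03 ± 0.10 after siMLX (edgeR adjusted p = 0.88). In GENCODE v29, 2292 of its 2698 exon bases also belong to AL121758.1 on the same strand, which has no entry in the count table.

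NQO1 reduces quinones, and HMOX1, haem oxygenase 1, breaks down haem. NQO1 (chr16:69706996-69726951, minus strand), often used as the readout of NRF2, had 301, 292 and 380.4 CPM in siMondoA, 345, 318 and 321 CPM in siMLX and 378, 382 and 325 CPM in siControl. The groups overlapped. Its log2 fold change was -0.16 ± 0.13 after siMondoA (edgeR adjusted p = 0.374) and -0.14 ± 0.13 after siMLX (edgeR adjusted p = 0.522).

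HMOX1 (chr22:35380361-35394214, plus strand) was scarce in this experiment, with 6.80, 8.90 and 10.6 CPM in siMondoA, 7.07, 4.23 and 6.55 CPM in siMLX and 6.66, 4.50 and 4.24 CPM in siControl. The siMondoA libraries lay just above the siControl libraries and the siMLX libraries overlapped both. The log2 fold change of 0.78 ± 0.26 after siMondoA missed the threshold (edgeR adjusted p = 0.0511), and after siMLX it was 0.22 ± 0.27 (edgeR adjusted p = 0.656). OSGIN1 (chr16:83948282-83966332, plus strand), a growth inhibitor induced by oxidative stress, had 2.97, 3.89 and 3.76 CPM in siMondoA, 2.74, 3.23 and 1.91 CPM in siMLX and 2.93, 2.56 and 1.76 CPM in siControl. Its siMondoA libraries were all above its siControl libraries, the closest pair by a small margin, and the log2 fold change was 0.56 ± 0.28 (edgeR adjusted p = 0.154). After siMLX it was 0.13 ± 0.29 (edgeR adjusted p = 0.82).

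**Figure D2:**
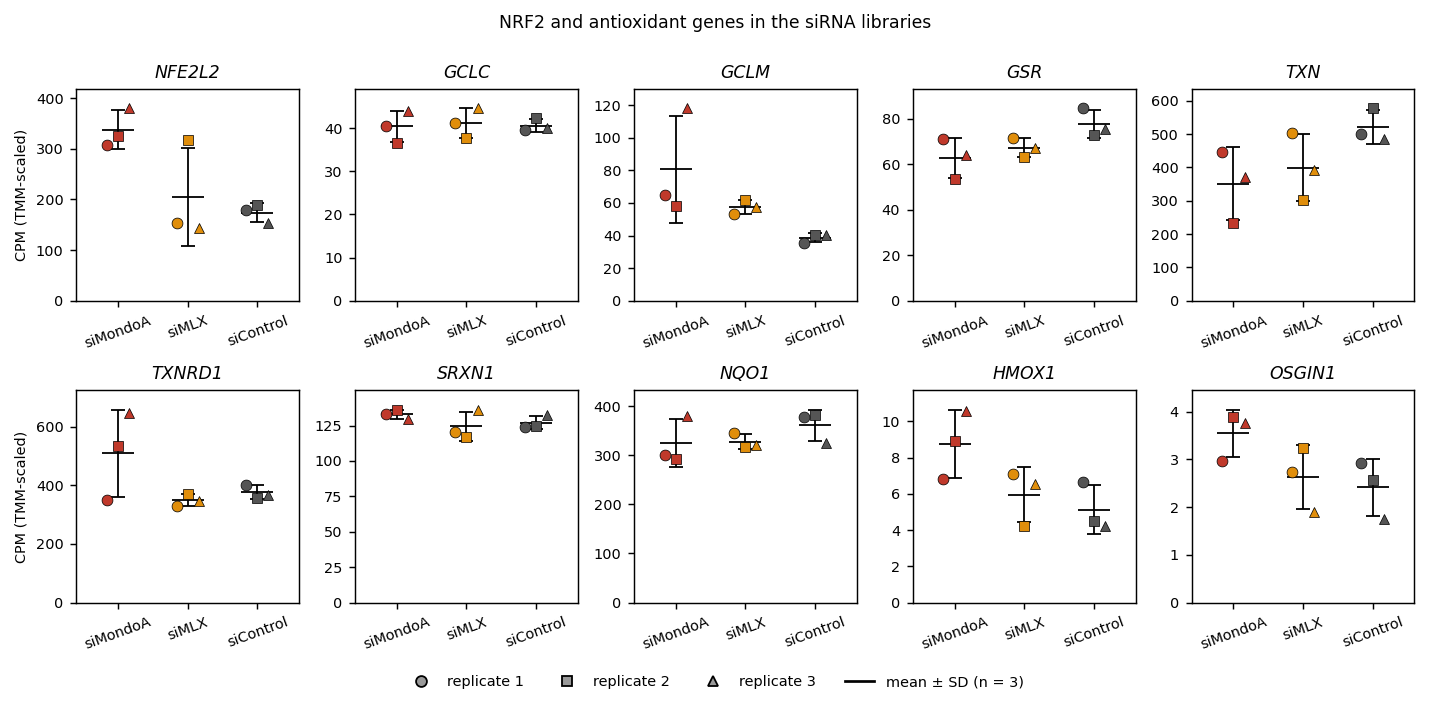
Each panel shows 1 gene, with CPM scaled by TMM factors on a linear axis that starts at 0; symbols are the 3 libraries of siMondoA, siMLX and siControl, and lines give the mean ± SD. NFE2L2 (307 to 381 CPM in siMondoA, 153 to 189 CPM in siControl) and GCLM (58.3 to 118 CPM in siMondoA, 35.5 to 40.5 CPM in siControl) stand apart from siControl, and siMLX replicate 2 is the single high siMLX point for NFE2L2.

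Set directly against each other, siMondoA and siMLX differed in none of the 10 genes by the edgeR test, where 12.9% of all genes were called; 2 of the 10 had an unadjusted p under 0.05 and DESeq2 called those 2. They were NFE2L2, with a log2 fold change of 0.72 ± 0.26 of siMondoA over siMLX (edgeR adjusted p = 0.0922), and TXNRD1, with 0.55 ± 0.18 (edgeR adjusted p = 0.0766). Without siMLX replicate 2 the NFE2L2 value was 1.18 (edgeR adjusted p = 0.000605). NFE2L2 also passed with the replicate as a block. GCLM had a log2 fold change of 0.48 ± 0.23 (edgeR adjusted p = 0.177) and HMOX1 one of 0.56 ± 0.26 (edgeR adjusted p = 0.181). The other 6 genes lay between -0.19 for TXN and 0.43 for OSGIN1.

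Of 77 other genes of the pathway, 71 were tested in the siRNA libraries. After siMondoA, 10 rose and 8 fell, 18 of 71, a share near the 27.2% of all genes called. Among 13 genes that control NRF2 or share its DNA sites, 4 rose and none fell. These were the small MAF partners MAFF (log2 fold change 1.72, edgeR adjusted p = 0.0145), MAFG (0.66, 0.0098) and MAFK (1.09, 0.0181), and TRIM16 (0.82, 0.0107), which helps to stabilise NRF2. MAFF had 30.1, 59.0 and 60.6 CPM in siMondoA, 18.2, 54.8 and 19.1 CPM in siMLX and 13.1, 17.8 and 14.5 CPM in siControl, so it was high in the same 4 libraries as NFE2L2. KEAP1 did not pass (log2 fold change -0.21, edgeR adjusted p = 0.226), and neither did BACH1, at 0.93 (edgeR adjusted p = 0.0707). BACH1 had 157 to 280 CPM in siMondoA, 83.4 to 236 CPM in siMLX and 105 to 135 CPM in siControl.

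Both chains of the cystine importer that feeds glutathione synthesis rose after siMondoA. SLC7A11 had 51.5, 86.6 and 149 CPM in siMondoA, 5.75, 131 and 13.2 CPM in siMLX and 2.49, 5.43 and 5.22 CPM in siControl (log2 fold change 4.43 in siMondoA, edgeR adjusted p = 0.0123), and SLC3A2 had a log2 fold change of 2.19 (edgeR adjusted p = 0.00398). The glutathione transferases GSTM2, GSTA4 and GSTP1 fell, with log2 fold changes of -1.99, -1.91 and -0.68 (edgeR adjusted p = 0.00424, 0.0181 and 0.0183). Those were the 2 rises and 3 falls among 15 tested genes of glutathione supply and use. GSTM2 and GSTA4 were scarce, with means of 0.923 and 0.529 CPM in siMondoA and 3.71 and 2.0 CPM in siControl. The lowest siMondoA library had 0.159 CPM of GSTA4, so these 2 fold changes are uncertain. GSTP1 had means of 103 CPM in siMondoA and 165 CPM in siControl. Of 9 other thioredoxin and peroxiredoxin genes, 3 fell and none rose. They were the mitochondrial peroxiredoxin PRDX3, PRDX6, and the thioredoxin-binding protein TXNIP, a known MondoA target, with log2 fold changes of -0.61, -0.34 and -2.23 (edgeR adjusted p = 0.0124, 0.0369 and 0.0221).

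Among 7 NADPH enzymes IDH1 and PGD fell, with log2 fold changes of -0.97 and -0.56 (edgeR adjusted p = 0.00792 and 0.0313), and ME1 rose, with 0.51 (edgeR adjusted p = 0.0405). Single genes rose in the remaining lists: SOD2, the mitochondrial superoxide dismutase, of 3 genes (log2 fold change 1.07, edgeR adjusted p = 0.00897), the aldo-keto reductase AKR1B1 of 16 detoxifying enzymes (0.73, 0.00322) and the ferritin heavy chain FTH1 of 4 iron and haem genes (1.16, 0.0195). None of 4 efflux transporters passed. The number of these 71 genes called was 18 with all libraries, and 9 without siControl replicate 1, 11 without siControl replicate 2, and 12 without siMondoA replicate 3.

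After siMLX, 6 of the 71 genes fell and none rose, a share near the 8.41% of all genes called. SOD1 and CAT, which remove superoxide and hydrogen peroxide, fell, with log2 fold changes of -0.87 and -0.74 (edgeR adjusted p = 0.0304 and 0.032). AKR1B1 fell too, with -0.71 (edgeR adjusted p = 0.00924), so that it was higher after siMondoA and lower after siMLX. Its log2 fold change of siMondoA over siMLX was 1.44 (edgeR adjusted p = 0.000306). AKR1C2, AKR1C1 and UGT1A6 fell, with log2 fold changes of -1.47, -1.34 and -0.85 (edgeR adjusted p = 0.0267, 0.0295 and 0.0344). Their values are uncertain because they share sequence with related genes, so that short reads may be shared too. The replicate numbers were taken to pair the siMLX and siControl libraries, from the data and not from the labels. With the replicate as a block, 1815 genes were called in place of 1094, with 15 of the 71 pathway genes and 0 of the 10 genes followed here. Without siMLX replicate 3, siControl replicate 1 or siControl replicate 2, 1 of the 71 genes was called. Between siMondoA and siMLX, 9 of the 71 were higher and 5 lower, 14 in all, where 12.9% of all genes were called. The 14 became 3 without siMLX replicate 3 and 22 without siMLX replicate 2.

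The drug experiment asks whether SBI-477 does to these genes what loss of MondoA does. With the libraries as labelled, none of the 10 genes, and none of 14023 tested genes (0%), was called by edgeR. An unadjusted p under 0.05 was found for 409 genes, none of the 10 among them, and DESeq2 called 0 of the 10. With replicates 1 and 3 alone, HMOX1, GCLM, SRXN1 and NQO1 rose with SBI-477, that is 4 of 10, where 18.1% of all genes were called and 9.07% were higher. NFE2L2 was not among them. The median log2 fold change of the 10 genes was 0.20, against -0.01 over all genes tested.

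NFE2L2 had 137, 135 and 138 CPM in SBI-477 replicates 1, 2 and 3, against 144, 129 and 146.5 CPM in DMSO. All 6 libraries lay within a narrow range. Its log2 fold change was -0.03 ± 0.09 with all replicates (edgeR adjusted p = 1) and -0.08 ± 0.08 with replicates 1 and 3 (edgeR adjusted p = 0.524).

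GCLM had 114, 81.5 and 116 CPM in SBI-477, against 84.5, 118 and 70.05 CPM in DMSO. SBI-477 was the higher of the pair in replicates 1 and 3 and the lower in replicate 2, and this held for HMOX1, SRXN1 and NQO1 too. With replicates 1 and 3 GCLM rose 1.49-fold (log2 fold change 0.57 ± 0.10, edgeR adjusted p = 0.00753). With all replicates the log2 fold change was 0.19 ± 0.21 (edgeR adjusted p = 1), and the authors' deposited table gives 0.57 with an adjusted p of 8.11e-06. The authors' value was matched only with the replicate 2 libraries exchanged, so its groups differ from those labelled. GCLC had 58.0, 56.0 and 54.1 CPM in SBI-477, against 56.7, 53.6 and 53.7 CPM in DMSO, and its groups overlapped in both sets of libraries (log2 fold change 0.02 ± 0.09 with replicates 1 and 3, edgeR adjusted p = 0.871). GSR had 70.9, 75.0 and 71.7 CPM in SBI-477, against 73.1, 59.3 and 81.2 CPM in DMSO, with a log2 fold change of -0.11 ± 0.09 in replicates 1 and 3 (edgeR adjusted p = 0.414).

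SRXN1 had 320.3, 252 and 345 CPM in SBI-477, against 242, 356 and 213 CPM in DMSO. It rose 1.46-fold with replicates 1 and 3 (log2 fold change 0.55 ± 0.09, edgeR adjusted p = 0.00587), while with all replicates the value was 0.18 ± 0.21 (edgeR adjusted p = 1). The other thioredoxin genes did not pass in either set. TXN had 279.5, 275 and 286 CPM in SBI-477, against 275, 379 and 251 CPM in DMSO (log2 fold change 0.11 ± 0.08 with replicates 1 and 3, edgeR adjusted p = 0.406). TXNRD1 had 539, 569 and 606 CPM in SBI-477, against 618, 442 and 592 CPM in DMSO (log2 fold change -0.08 ± 0.09 with replicates 1 and 3, edgeR adjusted p = 0.568).

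HMOX1 had 30.03, 19.2 and 39.2 CPM in SBI-477, against 21.1, 60.2 and 17.6 CPM in DMSO. It varied most between the DMSO libraries, where replicate 2 held the highest value of the experiment. With replicates 1 and 3 it rose 1.79-fold (log2 fold change 0.84 ± 0.14, edgeR adjusted p = 0.00608), and with all replicates the sign turned, at -0.16 ± 0.47 (edgeR adjusted p = 1). In the authors' deposited table its log2 fold change is 1.17 with an adjusted p of 6.46e-07. That column was matched only with the replicate 2 libraries exchanged, so it compares other groups than the labels give.

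NQO1 had 590.1, 425 and 629.6 CPM in SBI-477, against 511, 709 and 483 CPM in DMSO. With replicates 1 and 3 it rose 1.23-fold (log2 fold change 0.30 ± 0.09, edgeR adjusted p = 0.042), and with all replicates the value was -0.05 ± 0.20 (edgeR adjusted p = 1). The call on replicates 1 and 3 was lost without SBI-477 replicate 1 or 3 (edgeR adjusted p = 0.0913 and 0.337). Those fits have 1 SBI-477 library, which is assumed to vary like the DMSO libraries. OSGIN1 had 2.84, 2.58 and 3.19 CPM in SBI-477, against 1.73, 2.91 and 2.53 CPM in DMSO. Its log2 fold change of 0.50 ± 0.27 with replicates 1 and 3 did not pass (edgeR adjusted p = 0.223). With all replicates, the log2 fold changes of GCLC, GSR, TXN, TXNRD1 and OSGIN1 were 0.04, 0.03, -0.11, 0.05 and 0.27, each with an edgeR adjusted p of 1. In replicates 1 and 3 alone, 8 of the 10 genes had no overlap between the groups, where 63.9% of all genes had none.

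**Figure D3:**
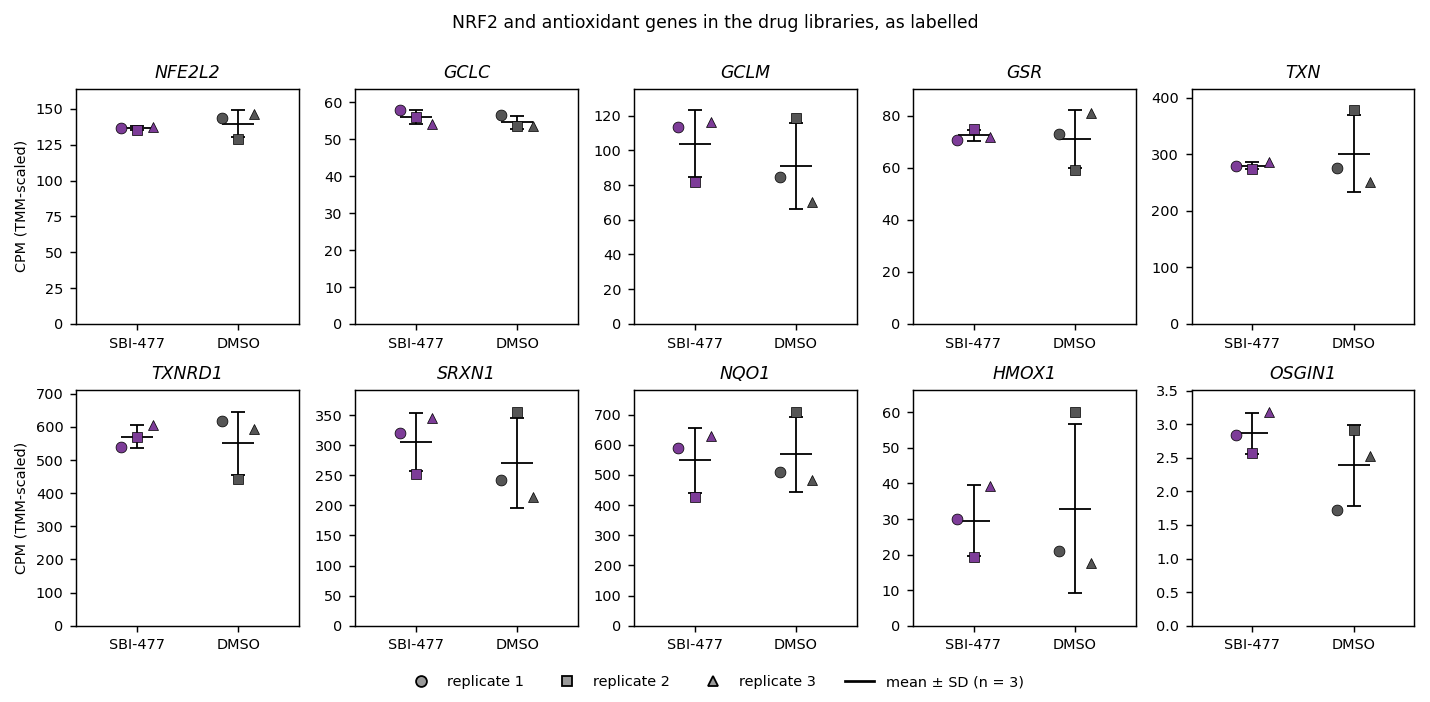
Each panel shows 1 gene, with CPM scaled by TMM factors on a linear axis that starts at 0; symbols are the 3 libraries of SBI-477 and DMSO as labelled, and lines give the mean ± SD. For GCLM, SRXN1, NQO1 and HMOX1 the replicate 2 points (squares) are in the opposite order to replicates 1 and 3, while NFE2L2 stays at 129 to 146.5 CPM in all 6 libraries.

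Of the 77 other pathway genes, 72 were tested in the drug libraries. As labelled, none was called. With replicates 1 and 3, 15 rose and 4 fell, where 18.1% of all genes were called. Among the genes that control NRF2, SQSTM1 (p62, which draws KEAP1 into autophagy), KEAP1 and DPP3 rose, with log2 fold changes of 1.09, 0.49 and 0.45 (edgeR adjusted p = 0.000915, 0.00747 and 0.0126). The repressor BACH1 and MAFF fell, with log2 fold changes of -0.75 and -0.79 (edgeR adjusted p = 0.00156 and 0.00445). SQSTM1 had 1290.2, 802 and 1585 CPM in SBI-477, against 712, 1803 and 642 CPM in DMSO, with replicate 2 again in the opposite order.

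Of 4 iron and haem genes, 3 rose with replicates 1 and 3: the ferritin chains FTH1 (log2 fold change 0.86, edgeR adjusted p = 0.000906) and FTL (0.97, 0.00186), whose many copies in the genome make the values uncertain, and HMOX2 (0.52, 0.00531). In glutathione supply and use, the peroxidases GPX1 and GPX3 and the transferase MGST1 rose, with log2 fold changes of 0.80, 0.82 and 0.31 (edgeR adjusted p = 0.00245, 0.0287 and 0.0453). The pentose phosphate enzyme TALDO1 rose, with 0.67 (edgeR adjusted p = 0.00245). Among 16 detoxifying enzymes ALDH3A1 and EPHX1 rose, with 1.21 and 0.59, and AKR1B10 fell, with -1.96 (edgeR adjusted p = 0.00748, 0.0247 and 0.00445). The transporter ABCG2 and the peroxiredoxin PRDX2 rose, with 0.65 and 0.39, and TXNIP fell, with -1.58 (edgeR adjusted p = 0.00953, 0.0144 and 0.00389). The 19 calls among the 72 genes were 29 without DMSO replicate 1 and 14 without SBI-477 replicate 3, fits in which the lone library of a group is assumed to vary like the other group.

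Other genes moved in the same libraries. Of the 14 stress response genes, 5 fell with SBI-477 in replicates 1 and 3 and none rose, where 18.1% of all genes were called. Of the 7 epithelial markers 4 fell, among them KRT8 and KRT18 (log2 fold changes -0.56 and -0.62). Of 5 tested fibroblast markers, COL1A1 and COL3A1 fell (-2.37 and -1.27), of 2 tested immune markers CD68 rose (1.02), and of 2 tested endothelial markers KDR rose (0.46). Fibroblast markers summed to 86.9 to 234 CPM in SBI-477 and 48.9 to 299 CPM in DMSO over all 3 replicates. Their part in the drug results was not tested. After siMondoA, COL3A1 rose and PDGFRB fell among 6 tested fibroblast markers (log2 fold changes 0.54 and -1.93), CD68 rose and CD14 fell (1.06 and -0.47), and KDR rose (0.94). Of the 7 epithelial markers, CDH1 rose and MUC1 fell after siMondoA (2.38 and -0.67). After siMLX, DCN and COL1A1 rose and PDGFRB fell (2.80, 0.94 and -1.20), KDR rose (1.40), and no immune or epithelial marker passed. Fibroblast markers summed to 527 to 810 CPM in siMondoA, 576 to 771 CPM in siMLX and 514 to 681 CPM in siControl, with THY1 at 0 in siMondoA and siControl. Endothelial markers summed to 27.4 to 38.03 CPM in siMondoA, 26.9 to 37.6 CPM in siMLX and 21.2 to 25.0 CPM in siControl. The part of these markers in the siRNA results was not tested.

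Whether the SBI-477 effect differed from the siMondoA effect was tested as an interaction in 1 fit over both experiments. With all drug libraries, none of the 10 genes passed, where 7.67% of all genes were called; 2 of the 10 had an unadjusted p under 0.05 and DESeq2 called 1. The difference for NFE2L2 was -0.97 ± 0.31 on the log2 scale (SBI-477 effect minus siMondoA effect, edgeR adjusted p = 0.0662), and for GCLM it was -0.85 ± 0.34 (edgeR adjusted p = 0.133). With drug replicates 1 and 3 only, SRXN1 passed with a difference of 0.50 ± 0.15 (edgeR adjusted p = 0.0435), where 11.5% of all genes were called. Leaving out any 1 of the 10 libraries of that fit's 4 groups lost this call, with edgeR adjusted p of 0.0535 to 0.199. In that fit NFE2L2 differed by -1.01 ± 0.37 (edgeR adjusted p = 0.0865), NQO1 by 0.47 ± 0.18 (edgeR adjusted p = 0.101), GCLM by -0.46 ± 0.33 (edgeR adjusted p = 0.363) and HMOX1 by 0.08 ± 0.36 (edgeR adjusted p = 0.91). Among the 72 other pathway genes, 3 were higher and 3 lower in the difference with all drug libraries, and 9 were higher and 4 lower with drug replicates 1 and 3. The experiment and the kind of treatment cannot be told apart in this contrast.

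**Figure D4:**
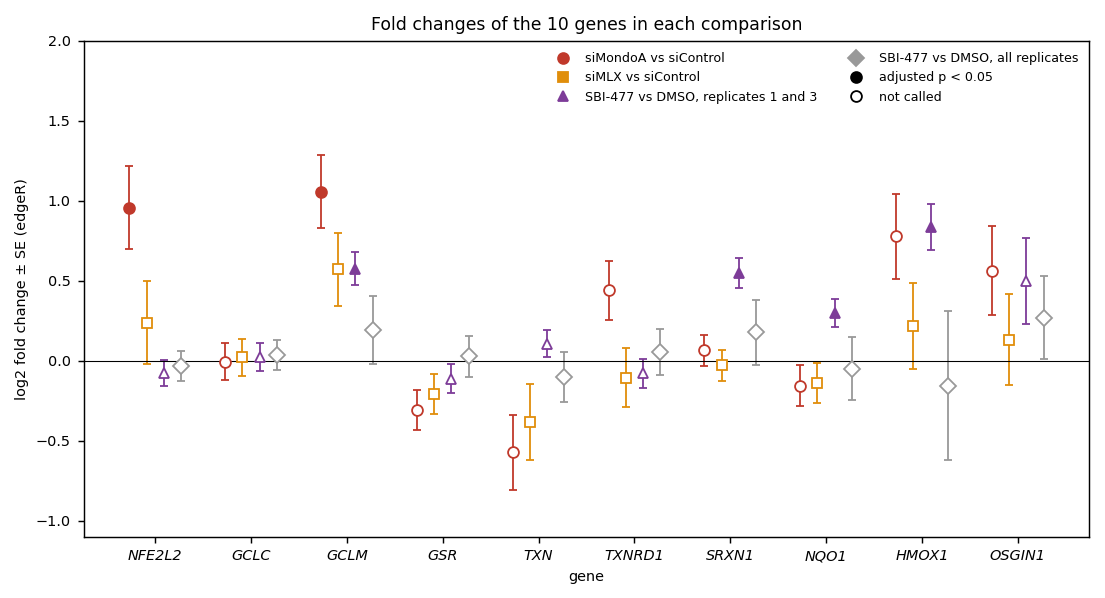
Points give the log2 fold change of each of the 10 genes and bars its SE, from edgeR, for siMondoA against siControl, siMLX against siControl, and SBI-477 against DMSO with replicates 1 and 3 and with all replicates; filled points have an adjusted p under 0.05. Filled points are NFE2L2 (0.96) and GCLM (1.06) for siMondoA, and GCLM (0.57), SRXN1 (0.55), NQO1 (0.30) and HMOX1 (0.84) for SBI-477 in replicates 1 and 3.

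Levels between genes were compared as CPM per kilobase of exon. In siControl the order was TXN at 457 ± 44.1, NQO1 at 111 ± 9.71, TXNRD1 at 56.0 ± 3.55, SRXN1 at 47.1 ± 1.68, NFE2L2 at 29.1 ± 3.12, GSR at 20.6 ± 1.67, GCLM at 7.14 ± 0.522, GCLC at 4.69 ± 0.179, HMOX1 at 2.14 ± 0.554 and OSGIN1 at 0.699 ± 0.173 CPM per kilobase (SD, n = 3). No neighbours in this order overlapped in their libraries. In siMondoA, NFE2L2 reached 56.5 ± 6.43 CPM per kilobase and stood above SRXN1 at 49.3 ± 1.25 without overlap, whereas GSR and GCLM, at 16.7 ± 2.36 and 14.9 ± 6.06, overlapped. NQO1 and TXNRD1, TXNRD1 and NFE2L2, and GCLC and HMOX1 also overlapped as neighbours in siMondoA. The siMLX group kept the siControl order, with NFE2L2 at 34.3 ± 16.2 overlapping SRXN1 at 46.1 ± 3.84, which in turn overlapped TXNRD1.

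The drug libraries had another order, although the 2 tables were normalized separately. In DMSO, SRXN1 at 100.3 ± 27.9 CPM per kilobase stood above TXNRD1 at 82.2 ± 14.2, with overlap, and HMOX1 at 13.7 ± 9.84 stood above GCLC at 6.32 ± 0.200 without overlap. SBI-477 libraries kept the DMSO order, from TXN at 246 ± 4.93 to OSGIN1 at 0.829 ± 0.0881 CPM per kilobase. GSR at 19.3 ± 0.575 and GCLM at 19.2 ± 3.58 overlapped there, as did GCLM and HMOX1, and in DMSO each of NFE2L2, GSR and GCLM overlapped the gene after it.

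The genes most like NQO1 and HMOX1 over the 9 siRNA libraries were found among 10860 genes averaging 4 CPM or more, by the root mean square difference of log2 CPM centred on each gene's mean. For NQO1 they were ZBTB22 at 0.06, LAMP2 at 0.07 and POLB at 0.08. For HMOX1 they were FGF13 at 0.19, JMJD6 at 0.21 and HERC3 at 0.23, a looser likeness. None of these 6 is one of the 10 genes or of the 77 other pathway genes.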

How the data were processed

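Libraries were grouped by their titles. Per the labels' protocols, RNA was extracted with Direct-zol kits and sequenced as short paired reads from Kapa libraries; HTSeq 0.6.1, TopHat2 2.1.0, bcl2fastq 1.8.4 and edgeR, and the builds hg38 and mm10, appear in the submitters' processing notes. No source used here states whether the kit marks strand, so overlapping antisense genes cannot be told apart. The authors deposited raw counts per gene symbol and library, 1 table per experiment. The same deposited tables hold the authors' log2 fold changes and their p-values with adjusted p-values, which are named as the authors' wherever printed; their siRNA columns were matched by DESeq2 1.42.0 when a replicate term was included.

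The test was edgeR 4.0.16 under R 4.3.3 (filterByExpr, TMM, quasi-likelihood test, Benjamini-Hochberg adjustment over all genes tested, threshold 0.05). The 9 siRNA libraries entered 1 fit, the 6 drug libraries another, and all 15 the interaction fit, without a replicate term. SE is the absolute log2 fold change divided by the square root of F. CPM used TMM factors within each table; log2 CPM for single libraries used a prior count of 2. The fits were tested on simulated counts with the same spread for all genes and no outlying library. That run checks only whether changes put in are found, and it does not show how the fits behave at the spread of these libraries. No replicates agreed within sampling noise: chi-square per degree of freedom was at least 8.26 for every pair. A count of 3, the limit a count of 0 allows, was 0.0947 to 0.267 CPM, for counting error only.

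Deviations of same-numbered siMLX and siControl libraries from their group means correlated at 0.268, 0.188 and 0.359, so these numbers were taken to pair them. For siMondoA the same correlations were 0.136, 0.0881 and 0.0084 with siControl, and 0.534, 0.447 and -0.109 with siMLX. Alternatives were DESeq2, its size factors, no low-count filter, only the groups compared, a replicate block and leaving out each library; leaving out libraries in the SRXN1 interaction was chosen after its value was seen. The 10 genes, the lists and the tests were chosen with earlier results of these data known. Named were all 10 genes and, per list, up to 4 others with the smallest adjusted p in each comparison of a treatment with its control. Between siMondoA and siMLX only AKR1B1 was named of the other pathway genes called, and for the interaction none was. GSTP1 and DPP3, next in their lists, and the stress, marker and comparison genes beyond them were named after their values were seen. The result of 1 gene that the rule named is not reported here. Positions and exon lengths are from GENCODE v29 (GRCh38), promoters from RefSeq.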

Additional observations from a re-analysis of the deposited data

Results flagged for a closer look

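SRXN1 differed between experiments by the test of the difference itself: the SBI-477 effect minus the siMondoA effect was 0.50 on the log2 scale with drug replicates 1 and 3 (edgeR adjusted p = 0.0435), and it was 0.13 with all drug libraries (edgeR adjusted p = 0.784).

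The following genes drew attention because every library of one treatment lay on the opposite side of its control's mean log2 CPM from every library of the other. NFE2L2 was higher in every siMondoA library and lower in every SBI-477 library, with mean log2 differences of -0.99 with all SBI-477 replicates and -1.04 with replicates 1 and 3; the interaction tests of it gave edgeR adjusted p of 0.0662 and 0.0865. GSR was lower in every siMondoA and siMLX library and, with all replicates, higher in every SBI-477 library, and the SBI-477 effect exceeded the siMondoA effect by 0.35 (edgeR adjusted p = 0.239) and the siMLX effect by 0.24, a difference that was not tested. In drug replicates 1 and 3, GSR was lower in both SBI-477 libraries than in both DMSO libraries, and the differences were 0.20 and 0.094. For TXN, the SBI-477 effect in replicates 1 and 3 exceeded the siMondoA effect by 0.73 (edgeR adjusted p = 0.182 for the fitted difference) and the siMLX effect by 0.52, the second of which was not tested. For NQO1, the SBI-477 effect in replicates 1 and 3 exceeded the siMLX effect by 0.43, which was not tested.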

How the results depend on the processing

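The number of the 10 genes called after siMondoA was 2, with 5 under the replicate block (GSR, HMOX1 and TXN added) and 1 to 6 when 1 library was left out (6 without siMondoA replicate 1; 1 without siMondoA replicate 3, siControl replicate 2 or siControl replicate 3). HMOX1 after siMondoA, just short of the threshold, passed under 6 alternatives, among them DESeq2 (adjusted p = 0.0305) and the replicate block (edgeR adjusted p = 0.0397). After siMLX 0 of the 10 were called and 1 with only the compared groups in the fit. Between siMondoA and siMLX the 0 became 2 with DESeq2, 1 under the replicate block (NFE2L2, edgeR adjusted p = 0.0348) and 0 to 1 with 1 library left out. For SBI-477 with replicates 1 and 3 the 4 genes were 3 under the block and 3 to 4 with 1 library left out, NQO1 being the one lost. As labelled, the drug libraries gave 0 of the 10 under every alternative run. In the interaction the 0 became 1 with no low-count filter (NFE2L2), 1 with DESeq2 (NFE2L2) and 1 with drug replicates 1 and 3 only (SRXN1). The causes were not tested.

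Over all genes, 3532 were called after siMondoA, and 1745 to 3884 with 1 library left out. After siMLX 1094 were called, 1686 with DESeq2, 1815 under the block, and 254 to 833 with 1 library left out. Between siMondoA and siMLX 1673 were called, 2606 under the block, 706 with only the compared groups, and 670 to 2970 with 1 library left out. SBI-477 with replicates 1 and 3 gave 2575, and 1194 (without SBI-477 replicate 3) to 4319 (without DMSO replicate 1) with 1 library left out, where the lone library of a group is assumed to vary like the other group. The interaction gave 1049, 1772 with DESeq2, 1595 with drug replicates 1 and 3 only, and 423 to 1680 with 1 library left out. Leaving libraries out leaves fewer samples per fit.

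Within each comparison, signs turned under the alternatives run only for genes not called in that comparison; HMOX1 and NQO1, called with drug replicates 1 and 3, had fitted log2 fold changes below 0 (-0.16 and -0.05) with all drug replicates. The ranges that follow are log2 values with 1 library left out. After siMondoA, GCLC ran from -0.072 to 0.057. After siMLX, GCLC ran from -0.041 to 0.081, NFE2L2 from -0.22 to 0.44, OSGIN1 from -0.063 to 0.32 and SRXN1 from -0.10 to 0.014. Between siMondoA and siMLX, GCLC ran from -0.095 to 0.035, GSR from -0.20 to 0.0049, NQO1 from -0.15 to 0.057 and TXN from -0.40 to 0.036. For SBI-477 as labelled, HMOX1 was 0.041 under the replicate block; HMOX1 ran from -0.46 to 0.60, NQO1 from -0.16 to 0.13, TXN from -0.22 to 0.085, TXNRD1 from -0.091 to 0.14, GSR from -0.095 to 0.13 and NFE2L2 from -0.094 to 0.0032. With replicates 1 and 3, GCLC ran from -0.021 to 0.078 and TXNRD1 from -0.16 to 0.0075. In the interaction, GCLC ran from -0.0063 to 0.13 and SRXN1 from -0.023 to 0.38, and HMOX1 was 0.080 with drug replicates 1 and 3 only. Apart from the siMLX result given with it, the replicate block was run where same-numbered libraries did not all deviate together. Of the siRNA libraries, 8 of 9 correlated best with their own number, a hint from the data only. Of the drug libraries 0 of 6 did. This cannot tell whether drug replicates pair, because each replicate 2 library was closer to replicates 1 and 3 of the other group than to those of its own. HMOX1 (at most 10.6 CPM) and OSGIN1 (at most 3.89 CPM) were the least deep in the siRNA libraries.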
